A study of Homo sapiens with 9 samples.

Results

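Cytosolic ribosomal protein genes were followed in DLD1 cells, an established human colorectal cancer line, after depletion of 2 nuclear lamins. The genes were taken by name, as RPL or RPS and a number with at most 1 of the letters A, X, Y or L, leaving out the RPS6K kinases and names that end in P and a number, as pseudogenes do. This gave 77 of the 31033 gene names on the arrays, with 206 probes. Of the 77 genes, 43 encode proteins of the large subunit, 30 encode proteins of the small subunit, and 4 (RPL3L, RPL10L, RPL39L and RPS27L) are paralogs of another member. The acidic stalk proteins RPLP0, RPLP1 and RPLP2, RPSA and FAU fall outside the naming rule and were followed separately.

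Each of 9 cultures was hybridized to 1 single-color Agilent array. The groups were 3 Control cultures, left without siRNA, 3 Lamin A/C Kd cultures and 3 Lamin B2 Kd cultures, each knockdown with 100 nM siRNA for 48 h. The controls were untreated, so an effect of siRNA transfection itself and an effect of losing a lamin cannot be told apart in either comparison with Control. The study's methods call the replicates independent and biological, and no array of cells given a non-targeting siRNA was analysed here.

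Cytosolic ribosomes are built from ribosomal RNA and a fixed set of proteins, 1 copy of most per ribosome, and their genes are among the most highly expressed of growing cells. Their mRNAs start with a run of pyrimidines, the 5′ terminal oligopyrimidine (TOP) tract, through which mTOR signaling and the LARP1 protein set their translation together. Several members have tasks outside the ribosome: RPL5 and RPL11 with 5S rRNA bind MDM2, the ubiquitin ligase of p53, when ribosome assembly is disturbed. An array measures mRNA levels and not the loading of these mRNAs on ribosomes.

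The start sites of the members show this shared feature. RefSeq start regions on GRCh38.p14 were matched for 60 of the 77 genes by symbol. A C at the annotated start followed by at least 4 more C or T bases on the coding strand was present in 38 of these 60 (63.3%), against 4.07% of all 35116 start regions in the same table. Counting any C within 5 bases of the annotated start with at least 4 more C or T bases after it, the shares were 76.7 and 21.1%. In both counts the run could extend further upstream. The regions of 6 members that the results below turn on or that serve as references are given here with 10 bases before the start and 20 bases from it, on the coding strand, with the run in capitals where there is one.
RPS10, chr6:34426050-34426079, minus strand: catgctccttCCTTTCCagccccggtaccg
RPL22, chr1:6199576-6199605, minus strand: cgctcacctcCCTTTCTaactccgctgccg
RPL31, chr2:101002279-101002308, plus strand: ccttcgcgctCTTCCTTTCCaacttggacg
RPL28, chr19:55385922-55385951, plus strand: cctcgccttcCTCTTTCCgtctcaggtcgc
RPS29, chr14:49598691-49598720, minus strand: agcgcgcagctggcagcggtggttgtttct
RPL10L, chr14:46651762-46651791, minus strand: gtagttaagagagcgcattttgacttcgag
The first 4 have runs of 7, 7, 10 and 8 bases counted from the annotated start, and such a run is not at the annotated start given for RPS29 and RPL10L.

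Signals are given as log2 of the processed intensity minus log2 of the array median. A gene with several probes was represented by the brightest one tested. A probe entered the test when either of the groups in a comparison had it well above background on each of its 3 arrays, which held for 203 of the 206 probes and 76 of the 77 genes. RPL39L, which is known as a testis-enriched paralog of RPL39, was the gene left out, with its only probe well above background on 0 arrays. Of the 76 tested genes, 73 were among the brightest 5% of all genes tested. No spot was saturated on any array, with member intensities reaching at most 396467.

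The bright probes of these genes shifted together on single arrays. The median member signal lay between 11.04 and 11.06 on the Control arrays and between 10.98 and 11.03 on the Lamin A/C Kd arrays. On the Lamin B2 Kd arrays it was 11.18 on replicate 1, 10.90 on replicate 2 and 10.72 on replicate 3, so the 3 arrays of that group lay on both sides of the controls. Against the mean of the controls, 70 of the 76 genes were higher on Lamin B2 Kd replicate 1, while 5 were higher on replicate 2 and 2 on replicate 3. Against the same mean, the members had a median of 0.14 on replicate 1, where the brightest 5% of all genes had 0.02 and all genes -0.06, so the members lay apart from the rest of that array. On replicate 2 the medians were -0.12 for the members, -0.15 for the brightest 5% and -0.08 for all genes, and on replicate 3 they were -0.34, -0.38 and -0.32. Lamin B2 Kd replicate 3 was the only array on a second slide. Its deposited intensities are rounded to fewer digits, and its scanner file gives 0 as the size of the multiplicative trend correction, against 0.03 to 0.09 on the other 8, so its processing may have differed. The median SD between replicates of a member was 0.05 in Control and 0.06 in Lamin A/C Kd, and it was 0.23 in Lamin B2 Kd. The part of the slide or of that processing in the Lamin B2 Kd values was not tested. Values without that array are given for the main Lamin B2 Kd results.

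**Figure D1:**
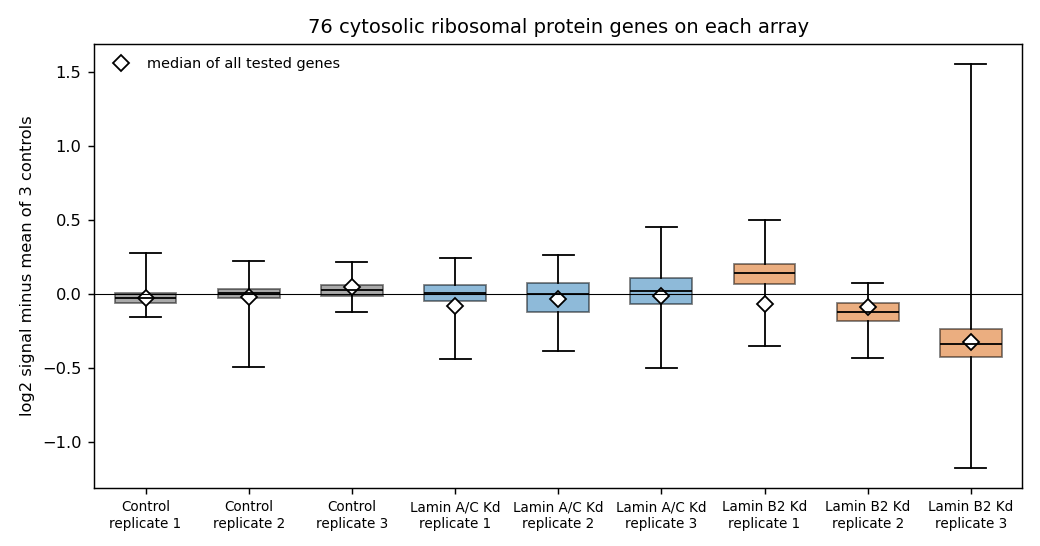
Log2 signal minus the mean of the 3 Control arrays for the 76 tested ribosomal protein genes on each of the 9 arrays. The boxes span the quartiles with the median as a line, the whiskers reach the lowest and highest gene, and diamonds mark the median of all tested genes. The boxes of Lamin A/C Kd sit on 0, and those of Lamin B2 Kd lie at medians of 0.14, -0.12 and -0.34.

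The targeted genes fell in the arrays labelled with their knockdown. LMNA signal, 8.83 on average in Control, was between 4.84 and 5.14 in Lamin A/C Kd, and LMNB2, 5.56 on average in Control, was between 3.10 and 3.48 in Lamin B2 Kd. Of 9 colorectal epithelial markers on the array 8 were well above background on all 9 arrays, while 0 of 5 fibroblast markers were. Of the other lists, 3 of 4 leukocyte and 2 of 3 endothelial markers had a probe well above background on all 9 arrays, PTPRC and CDH5 being the exceptions.

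Transcript levels of the ribosomal protein genes did not change detectably as a group in Lamin A/C Kd. By limma's moderated test with Benjamini-Hochberg adjustment, 0 of the 76 genes were called, against 8.83% of all 21868 genes tested (1932 genes), and 1 gene had an unadjusted p under 0.05, against 23.1% of all genes. The number of all genes called depended on single arrays. It was 4543 without Lamin B2 Kd replicate 3, 596 to 708 without any 1 of the controls and 679 to 1103 without any 1 of the Lamin A/C Kd arrays, while the members called were 1 (RPL22) without Lamin B2 Kd replicate 3 and 0 without each of the others. The median log2 fold change of the members was 0.01, with quartiles at -0.06 and 0.06, and 41 of the 76 values were positive. For all genes the median was -0.04 and for the brightest 5% of genes -0.08. The small subunit genes had a median of 0.03 and the large subunit genes -0.02.

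These estimates were narrow. The median half-width of the 95% interval of a member's log2 fold change was 0.31. In Lamin A/C Kd the interval lay inside a 2-fold change in either direction for all 76 tested genes, and inside a 1.5-fold change for 71. Among all genes, 83.0% and 44.2% had intervals that narrow.

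**Figure D2:**
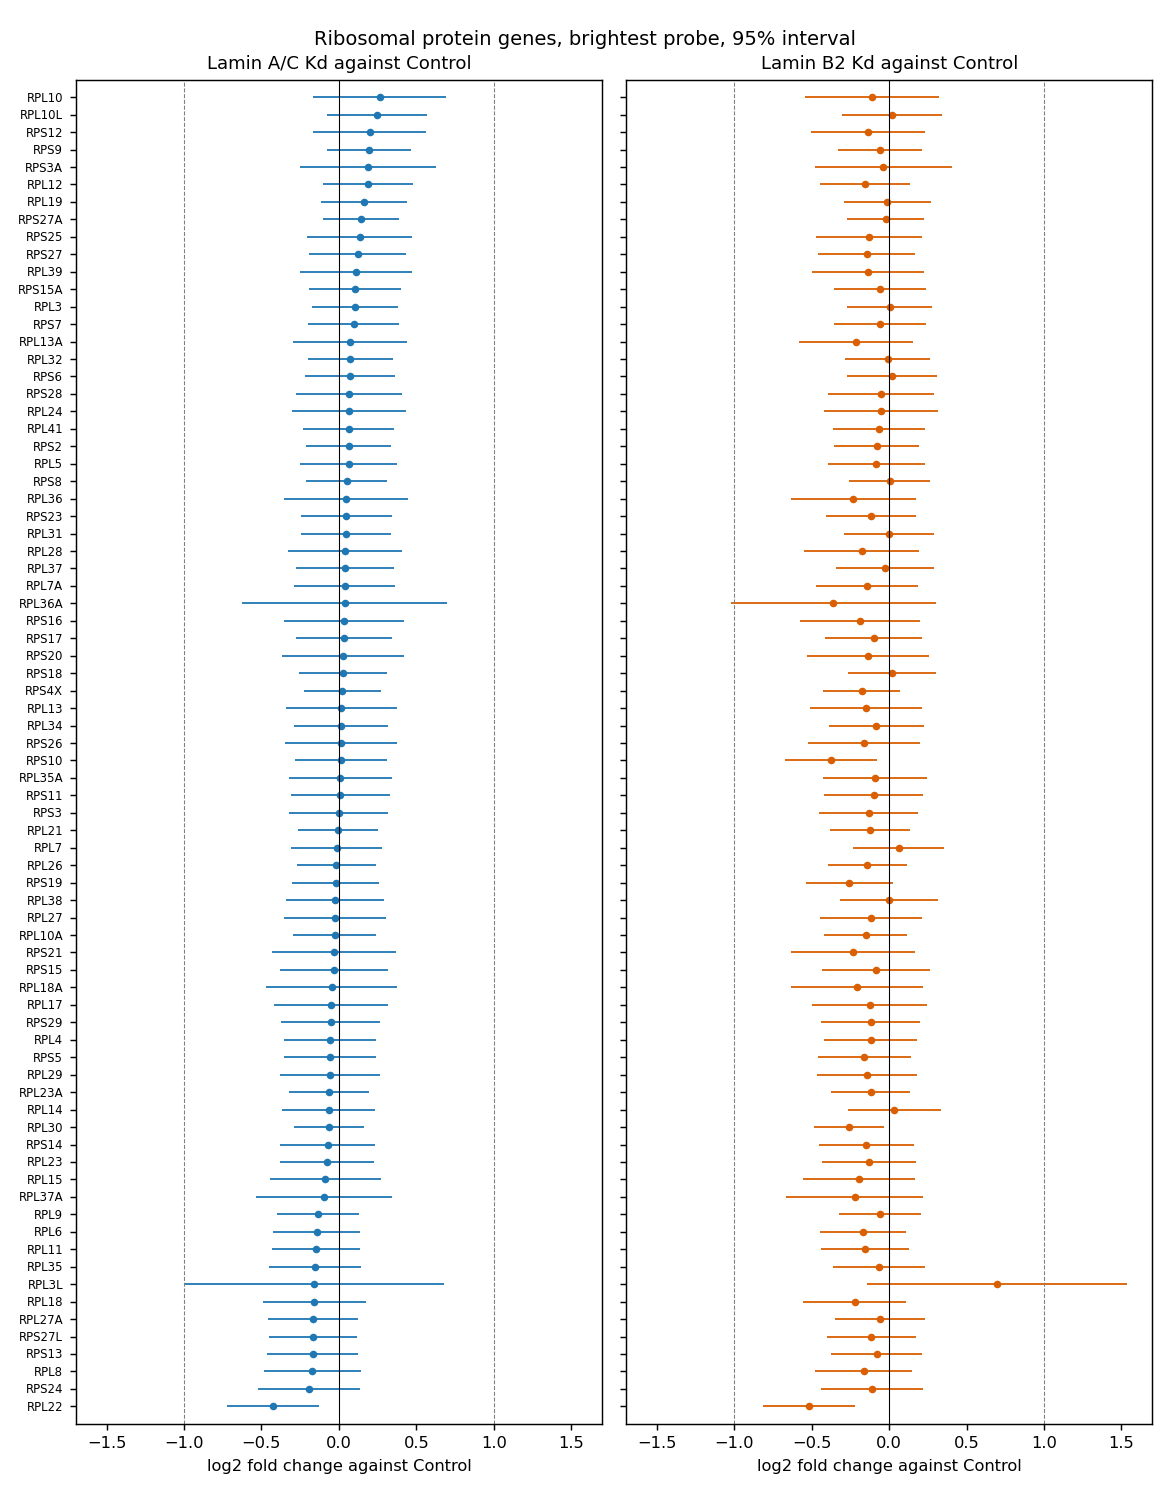
Log2 fold change against Control of each tested ribosomal protein gene, with Lamin A/C Kd on the left and Lamin B2 Kd on the right, in the order of the Lamin A/C Kd values. Points are the fitted values of the brightest probe, bars the 95% interval from limma with 3 arrays per group, and dashed lines a 2-fold change. RPL22 is lowest in both, and RPL3L, a weakly detected paralog, has the widest bars.

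The highest and lowest members in Lamin A/C Kd differed little from Control. RPL10, a large subunit protein that joins the ribosome late in its maturation, had the highest value, at 0.26 ± 0.19 (SE, n = 3 arrays a group). Its signal was 10.63, 10.75 and 10.80 in Control and 10.94, 10.99 and 11.04 in Lamin A/C Kd, without overlap. RPL10L (0.25 ± 0.14), RPS12 (0.20 ± 0.16), RPS9 (0.19 ± 0.12) and RPS3A (0.19 ± 0.20) followed. The lowest after RPL22 were RPS24 (-0.20 ± 0.15), RPL8 (-0.17 ± 0.14), RPS13 (-0.17 ± 0.13) and RPS27L (-0.17 ± 0.13). All adjusted p-values of these 9 genes were at least 0.343 by limma.

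Without regard to size, 8 members lay above all controls on every Lamin A/C Kd array and 13 lay below, where 15.6% and 25.2% of all genes did so. The members' shares are 8 and 13 of 76, not above this background in either direction. RPL11 was among those below, with 11.11, 11.09 and 11.16 in Control and 10.98, 10.90 and 11.02 in Lamin A/C Kd, a log2 fold change of -0.15 ± 0.13. RPL23, which also binds MDM2, had a value of -0.08 ± 0.13.

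In Lamin B2 Kd also 0 of 76 genes were called, against 4.33% of all 22123 genes tested (957 genes), and 3 had an unadjusted p under 0.05, against 24.4%. Without Control replicate 1, 2 or 3 the genes called fell to 47, 112 and 37, and without any 1 of the Lamin A/C Kd arrays to 385 to 439, so this background rests on every control array. The median log2 fold change of the members was -0.12, with quartiles at -0.16 and -0.06, and 9 of 76 values were positive. The median was -0.14 for all genes and -0.17 for the brightest 5%. Without Lamin B2 Kd replicate 3 the member median was 0.00, from 0.00467 in the fit, and that of all genes was -0.06. Without replicate 1 these medians were -0.23 and -0.17, and without replicate 2 they were -0.11 and -0.17. With quantile normalization the member median was 0.02. With a shift by the 75th percentile in place of the median it was 0.08, of the opposite sign.

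The 3 members with an unadjusted p under 0.05 were RPL22, RPS10 and RPL30. RPL30, a large subunit protein, was at 9.82, 9.82 and 9.87 in Control and at 9.53, 9.60 and 9.60 in Lamin B2 Kd. The groups did not overlap, and the log2 fold change of -0.26 ± 0.10 had an adjusted p of 0.168 by limma. RPS19, the gene most often mutated in Diamond-Blackfan anemia, was the fourth member whose Lamin B2 Kd arrays all lay below the controls (10.76 to 10.81 in Control, 10.30 to 10.69 in Lamin B2 Kd). In all 4 members lay below and 0 above, where 27.2% and 5.63% of all genes did.

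Other extreme values in Lamin B2 Kd changed when replicate 3 was left out, some upward and some downward. RPL36A had a log2 fold change of -0.36 ± 0.29, with signals of 10.81, 10.48 and 9.43 against 10.54 to 10.64 in Control, and of 0.04 without replicate 3. RPL3L, known from heart and skeletal muscle, had the highest value of all, 0.70 ± 0.37, with signals of 0.84, 0.38 and 1.89 against -0.15 to 0.62 in Control, and 0.27 without replicate 3. The other members of the highest 5 were RPL7 (0.06, and -0.06 without replicate 3), RPL14 (0.03, and 0.11 without it), RPS6, the ribosomal substrate of S6 kinase (0.02, and 0.10 without it), and RPL10L (0.02, and 0.16 without it).

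RPL22, a large subunit protein with known tasks in T cell development, was the lowest member in both knockdowns. Its brightest probe gave 8.18, 8.02 and 8.19 in Control, 7.69, 7.75 and 7.68 in Lamin A/C Kd, and 7.78, 7.70 and 7.37 in Lamin B2 Kd. All 6 knockdown arrays lay below all 3 controls. Against Control, Lamin A/C Kd gave a log2 fold change of -0.43 ± 0.13 (adjusted p = 0.0799, limma). Lamin B2 Kd gave -0.52 ± 0.13 (adjusted p = 0.0639), and -0.39 without replicate 3. The knockdowns differed by 0.09 ± 0.13 from each other. Both comparisons use the same 3 controls.

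Whether RPL22 was called in Lamin A/C Kd changed with the samples in the fit. Without Lamin B2 Kd replicate 3 in the fit the value of -0.43 had an adjusted p of 0.0112, and with only the 2 groups compared 0.0170. Over all 21 alternatives the value lay between -0.53 and -0.23 in Lamin A/C Kd, with 8 of them calling it (adjusted p from 0.00641 to 0.287). In Lamin B2 Kd it lay between -0.60 and -0.22, with 2 calling it. The second probe, P115460, was lower by similar amounts, -0.49 ± 0.13 after loss of Lamin A/C (adjusted p = 0.0449, an adjusted p under 0.05 in 9 of 19 alternatives) and -0.52 ± 0.13 with Lamin B2 depleted (adjusted p = 0.0565). Leaving out any 1 Control or Lamin A/C Kd array, or Lamin B2 Kd replicate 1 or 2, ended the call, with an adjusted p of 0.0526 to 0.177. The third, P849801, gave 0.05 ± 0.15 in Lamin A/C Kd but -0.35 ± 0.15 in Lamin B2 Kd, so the probes of this gene did not all move alike.

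The members with tasks outside the ribosome or with paralogs were otherwise not called. The log2 fold changes, first in Lamin A/C Kd, then with Lamin B2 depleted, were 0.06 and -0.08 for RPL5, -0.02 and -0.14 for RPL26, which binds the p53 mRNA, 0.07 and 0.02 for RPS6, and 0.07 and -0.21 for RPL13A, which acts in interferon-induced silencing of translation. RPS4X, on the X chromosome, had 0.02 and -0.18, RPL3 had 0.10 and 0.00, RPL39 had 0.11 and -0.14, and RPS27 had 0.12 and -0.15. Without Lamin B2 Kd replicate 3 the second values became 0.04 for RPL5, -0.05 for RPL26, 0.10 for RPS6, -0.08 for RPL13A, -0.13 for RPS4X, 0.07 for RPL3, -0.02 for RPL39 and 0.00 for RPS27 (-0.00386 in the fit). None of these genes had an adjusted p under 0.05 by limma with all arrays.

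Paralogs share sequence with their partners, which limits how far a probe separates them. The probes below were placed against each other without gaps, and capitals mark the bases that differ in the stretch the pair shares.
RPS27, P148235: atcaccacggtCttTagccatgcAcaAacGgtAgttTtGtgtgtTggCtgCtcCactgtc
RPS27L, P14734: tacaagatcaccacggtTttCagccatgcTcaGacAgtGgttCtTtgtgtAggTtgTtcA
RPL10, P754803: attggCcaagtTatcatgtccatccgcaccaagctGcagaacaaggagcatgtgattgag
RPL10L, P341325: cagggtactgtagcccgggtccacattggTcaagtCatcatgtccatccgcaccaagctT
The RPS27 pair differs at 12 of 54 shared bases and the RPL10 pair at 3 of 36. RPL10L, an intronless copy known from testis, read 8.50 to 8.68 in Control and 8.78 to 8.90 in Lamin A/C Kd, and neither it nor RPL10 passed the test. With quantile normalization RPL10L was called in Lamin A/C Kd (log2 fold change 0.38, adjusted p = 0.0151, limma), and with cyclic loess too (0.35, adjusted p = 0.0315). How much of its signal is RPL10 mRNA was not tested. RPS27L, a known p53 target, read 6.82 to 6.89 in Control, 6.57 to 6.79 in Lamin A/C Kd and 6.56 to 6.93 in Lamin B2 Kd.

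Between the knockdowns, 0 of 76 genes were called, against 15.6% of all 21852 genes tested, and 3 had an unadjusted p under 0.05, against 29.3%. The median log2 difference of Lamin A/C Kd over Lamin B2 Kd was 0.12 for the members. It was 0.05 for all genes and 0.09 for the brightest 5%. Without Lamin B2 Kd replicate 3 it was 0.00 for the members, from -0.00247 in the fit, and 0.01 for all genes. Without replicate 1 it was 0.23 for the members and 0.07 for all genes, and without replicate 2 it was 0.12 and 0.08. Of the members 6 lay higher and 0 lower on every Lamin A/C Kd array than on every Lamin B2 Kd array, where 21.9% and 10.4% of all genes did.

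The brightest probe does not show all of what the 206 probes measured, and every probe was therefore examined as well, a step chosen after the values were seen. With Lamin A/C depleted, 3 of the 203 tested member probes rose and 2 fell, against 2.99% and 6.08% of all 33131 probes. In Lamin B2 Kd 0 rose and 7 fell, against 0.45% and 3.62% of 33535. Between the knockdowns 10 were higher and 0 lower in Lamin A/C Kd, against 10.5% and 4.91% of 33134. At a change of at least 2-fold with an unadjusted p under 0.05, the numbers were 1 (2.31% of all probes), 0 (1.97%) and 4 (4.07%). The called probes came from 7 genes, led by RPS10, RPS29 and RPL31.

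RPS10, a small subunit protein at the mRNA entry side and another gene mutated in Diamond-Blackfan anemia, fell in Lamin B2 Kd on 5 of its 7 probes. These 5 lie next to one another and overlap, spanning 143 bases, of which 94 are covered by more than 1 probe. They are shown in the order in which they overlap because they carry the result and share target sequence. Capitals mark the 8 positions at which overlapping probes differ.
RPS10, P86728, bases 1 to 60: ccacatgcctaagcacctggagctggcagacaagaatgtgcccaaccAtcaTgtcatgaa
RPS10, P14894, bases 31 to 90: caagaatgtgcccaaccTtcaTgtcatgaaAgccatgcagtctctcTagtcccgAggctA
RPS10, P318646, bases 47 to 106: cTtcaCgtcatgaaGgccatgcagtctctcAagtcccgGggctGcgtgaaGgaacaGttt
RPS10, P164630, bases 65 to 124: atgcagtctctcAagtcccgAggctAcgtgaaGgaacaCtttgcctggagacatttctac
RPS10, P418619, bases 84 to 143: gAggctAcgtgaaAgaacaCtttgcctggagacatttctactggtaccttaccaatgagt
Since the probes overlap, they are not 5 independent measurements of RPS10. All 5 are assigned to NM_001014. Where overlapping probes carry different letters at a position, at most 1 of the letters can match that transcript. The 5 probes therefore cannot all match it exactly. Which letters match it, and which match any of the many RPS10 pseudogenes, was not analysed here.

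On P164630, the brightest of the 5, the signal was 10.79, 10.83 and 10.78 in Control, 10.78, 10.77 and 10.80 in Lamin A/C Kd, and 10.20, 10.09 and 9.63 in Lamin B2 Kd. The Lamin A/C Kd arrays lay on the controls, and all Lamin B2 Kd arrays lay well below them. The log2 fold change in Lamin B2 Kd was -0.83 ± 0.15 (adjusted p = 0.0248, limma), 1.77-fold lower. Over the 5 probes it ranged from -0.83 to -0.95, with adjusted p from 0.0217 to 0.0482, and in Lamin A/C Kd from -0.07 to 0.00. The difference between the knockdowns passed the test on all 5, at 0.76 to 0.95, with adjusted p from 0.00798 to 0.0193.

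Without Lamin B2 Kd replicate 3 the 5 RPS10 probes still fell, by 0.64 to 0.71 on the log2 scale, with adjusted p from 0.0104 to 0.0248. Of 19 alternatives 9 called all 5, 4 called some, and 6 called none, with adjusted p up to 0.183. The direction was the same in each. The 6 with none were a fit without Control replicate 1, 2 or 3 (adjusted p from 0.0899 to 0.183), a block for the replicate number, a fit restricted to the 2 groups, and no filter on detection. Leaving out Lamin A/C Kd replicate 1, 2 or 3 called 1, 2 and 2 of the 5, and leaving out Lamin B2 Kd replicate 2 called 4. The difference between the knockdowns was called on all 5 in 14 of 19 alternatives and on some in 5.

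The other RPS10 probes read differently. P356484, the brightest, has no overlap with the 5 and was at 11.29, 11.36 and 11.46 in Control and at 11.19, 11.04 and 10.75 in Lamin B2 Kd, a log2 fold change of -0.38 ± 0.13 (adjusted p = 0.138). Its Lamin B2 Kd arrays too lay below all controls, at a smaller distance, and whether the size differs from that of the 5 was not tested. P84132, the dimmest, assigned to another transcript record, gave 0.31 ± 0.19 (adjusted p = 0.338), and 0.11 without Lamin B2 Kd replicate 3.

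**Figure D3:**
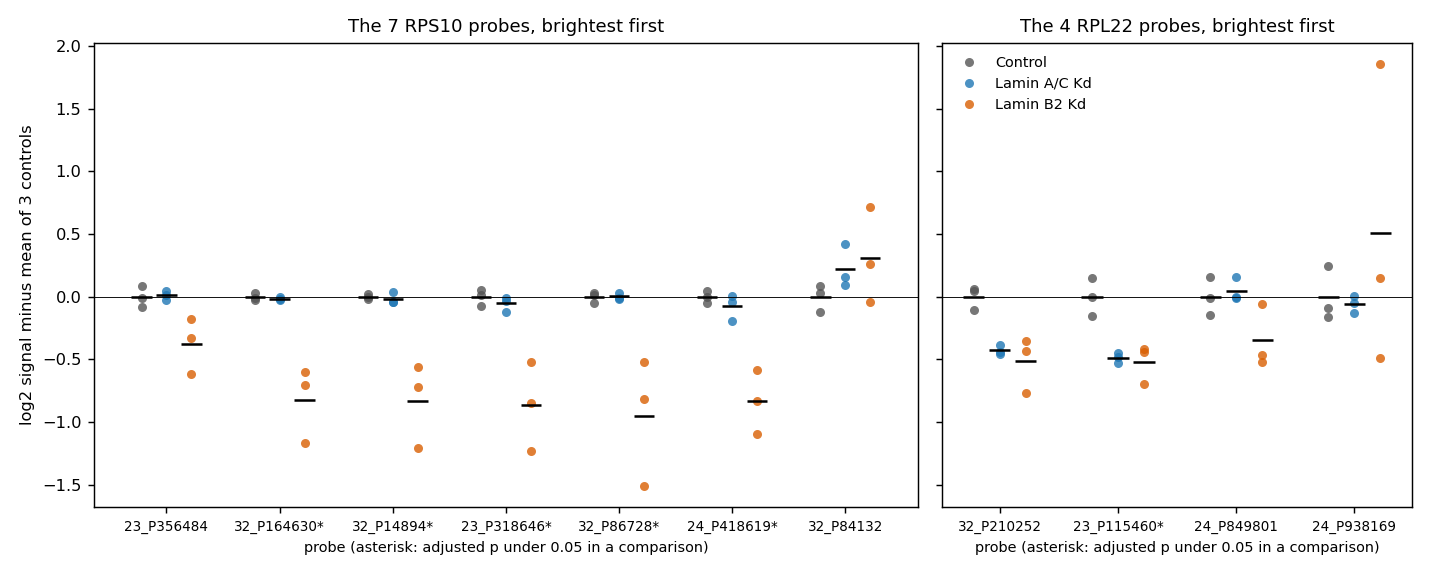
Log2 signal minus the mean of the 3 Control arrays for the 7 probes of RPS10 and the 4 probes of RPL22, brightest first. Points are single arrays, short lines the group means of 3 arrays, and asterisks mark probes with an adjusted p under 0.05 in any comparison. The 5 overlapping RPS10 probes are lower in Lamin B2 Kd and at Control level in Lamin A/C Kd, the RPL22 probes P210252 and P115460 are lower in both knockdowns, and the dimmest RPL22 probe has 1 Lamin B2 Kd array, replicate 3, far above the others.

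In RPS29 and RPL31 the bright probes were not called and some dim probes assigned to another transcript were. RPS29 is a small zinc-binding protein of the small subunit. Its bright probes, assigned to NM_001032, gave -0.05 ± 0.14 and -0.06 ± 0.14 in Lamin A/C Kd. The probe HS_44k_1155, assigned to the alternative transcript NM_001030001, was at 4.50, 4.31 and 4.43 in Control, 6.25, 6.30 and 6.24 in Lamin A/C Kd, and 4.09, 3.86 and 3.72 in Lamin B2 Kd.

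The 3 groups did not overlap on this probe. It rose 3.61-fold in Lamin A/C Kd (log2 fold change 1.85 ± 0.12, adjusted p = 0.000241), the largest change of any member probe there, and had a log2 fold change of -0.52 ± 0.12 in Lamin B2 Kd (adjusted p = 0.0519). The knockdowns differed 5.18-fold (adjusted p = 6.19e-05). A second probe of the same transcript, HS_44k_1156, which does not overlap the first, was at 7.23 to 7.25 in Control and 7.56 to 7.66 in Lamin A/C Kd, a log2 fold change of 0.37 ± 0.18 (adjusted p = 0.248). Whether the 2 probes of this transcript differ was not tested.

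RPL31, a large subunit protein near the exit of the peptide tunnel, had 2 probes assigned to NM_001098577 that share 29 identical bases. On HS_44k_1568 the signal was 3.03, 3.39 and 3.22 in Control, 3.96, 3.88 and 4.03 in Lamin A/C Kd, and 2.71, 2.57 and 2.61 in Lamin B2 Kd. It rose in Lamin A/C Kd, by a log2 fold change of 0.74 ± 0.12 (adjusted p = 0.00884), and fell in Lamin B2 Kd, with -0.59 ± 0.12 (adjusted p = 0.0380). HS_44k_1567 gave 0.77 ± 0.12 (adjusted p = 0.00707) and -0.43 ± 0.12 (adjusted p = 0.0761). The bright RPL31 probes gave 0.05 ± 0.13 and 0.09 ± 0.13 in Lamin A/C Kd, and 0.00 ± 0.13 and -0.04 ± 0.13 with Lamin B2 depleted.

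RPL28, a large subunit protein, differed between the knockdowns on a single dim probe, assigned to the same transcript as its brightest one. P916251 was at 2.76 to 2.94 in Control, 1.85 to 2.31 in Lamin B2 Kd and 3.04 to 3.24 in Lamin A/C Kd, without overlap. It fell in Lamin B2 Kd (-0.68 ± 0.15, adjusted p = 0.0419), and the knockdowns differed by 1.02 ± 0.15 (adjusted p = 0.00283). The brightest RPL28 probe gave 0.04 ± 0.16 in Lamin A/C Kd and, with Lamin B2 depleted, -0.18 ± 0.16, or 0.00 without replicate 3 (-0.00251 in the fit). The dim RPS14 probe P37939 also differed between the knockdowns, by 0.49 ± 0.14 (adjusted p = 0.0418), and the dim RPL23 probe P205242 fell in Lamin A/C Kd (-0.66 ± 0.14, adjusted p = 0.0228). On that RPL23 probe Lamin B2 Kd gave -0.59 ± 0.14 (adjusted p = 0.0541), with all its arrays below the controls, and the knockdowns differed by -0.07 ± 0.14.

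The rises of the RPS29 and RPL31 probes in Lamin A/C Kd were called in each of 19 alternatives, with a log2 fold change of 1.72 to 1.97 for HS_44k_1155, 0.61 to 0.83 for HS_44k_1568 and 0.58 to 0.84 for HS_44k_1567. The falls of dim probes in Lamin B2 Kd were less stable. HS_44k_1568 was called in 5 of 19 alternatives, and leaving out any array but Lamin B2 Kd replicate 3 ended the call, with an adjusted p of 0.0548 to 0.158. The RPL28 probe P916251 was called in 9 of 19, and was not when any Control or Lamin A/C Kd array or Lamin B2 Kd replicate 1 was left out (adjusted p from 0.0546 to 0.181). The RPL23 probe P205242 was called in Lamin A/C Kd in 13 of 19, not without any 1 of the controls or Lamin A/C Kd replicate 1 or 2 (adjusted p from 0.0515 to 0.0951). The difference of the RPS14 probe was called in 7 of 19. Over the 54 genes with more than 1 tested probe, the highest and lowest log2 fold change of a gene's probes lay a median of 0.16 apart in Lamin A/C Kd and 0.19 apart in Lamin B2 Kd, and over 0.5 apart in 8 genes each.

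**Figure D4:**
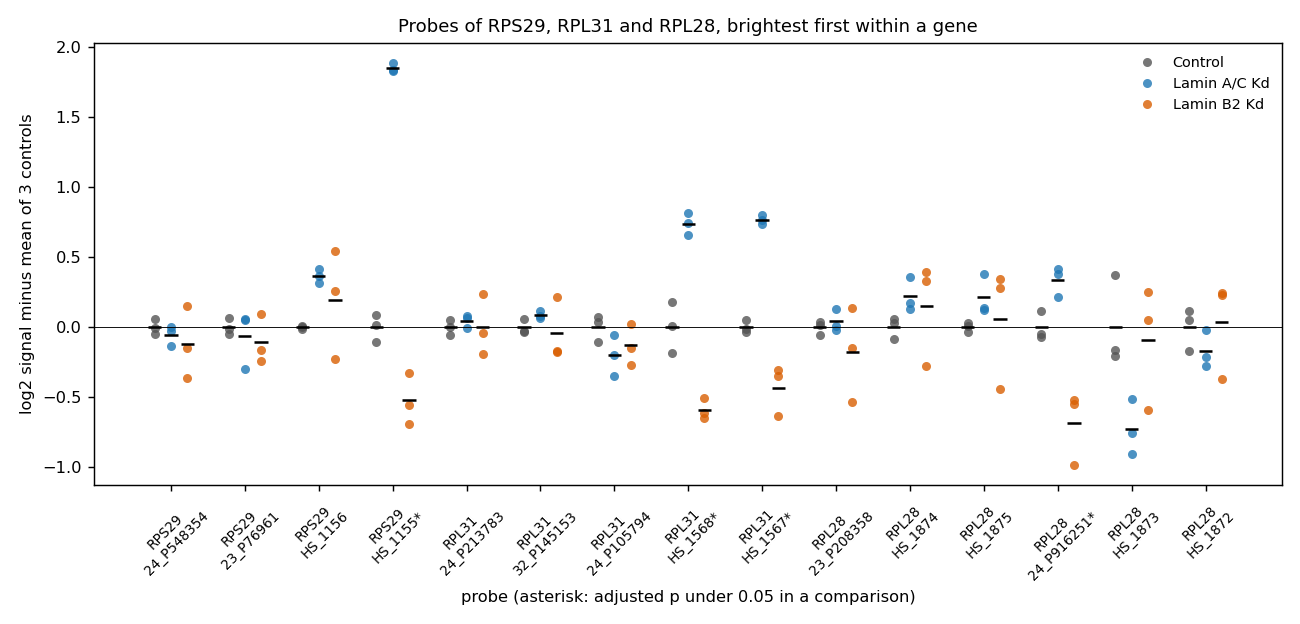
Log2 signal minus the mean of the 3 Control arrays for every probe of RPS29, RPL31 and RPL28, brightest first within a gene. Points are single arrays, short lines the group means of 3 arrays, and asterisks mark probes with an adjusted p under 0.05 in any comparison. The probes HS_1155, HS_1568, HS_1567 and 24_P916251 have Lamin A/C Kd above and Lamin B2 Kd below Control, while the brightest probes of these genes stay near 0.

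Of the ribosomal proteins outside the naming rule, 0 of 10 were called in either knockdown, against 8.83% and 4.33% of all genes. An unadjusted p under 0.05 was found for 2 in each, against 23.1% and 24.4% of all genes. Of the stalk proteins, RPLP1 was highest in Lamin A/C Kd, at 11.79 to 11.90 against 11.53 to 11.62 in Control, a log2 fold change of 0.28 ± 0.12 (adjusted p = 0.190). RPLP0 gave 0.15 ± 0.14 and RPLP2 0.14 ± 0.12, and for both also all Lamin A/C Kd arrays lay above all controls. RPSA, RPL26L1 and RPL7L1 lay below all controls on every Lamin A/C Kd array. Of all genes 15.6% lay above and 25.2% below. FAU, which encodes a fusion of a ubiquitin-like protein with a ribosomal protein, had a value of 0.02 ± 0.13. RPSA was read by a dim probe, at 0.23 to 0.39 in Control, and gave -0.62 ± 0.24 (adjusted p = 0.153). In Lamin B2 Kd the 2 with an unadjusted p under 0.05 were RPL7L1 and RPL22L1. RPL7L1 gave -0.41 ± 0.16 there, and -0.23 without replicate 3. RPL22L1 gave -0.36 ± 0.13, and -0.24 without it.

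Of 49 ribosome biogenesis genes, 1 rose and 5 fell in Lamin A/C Kd, 12.2% of the list against 8.83% of all genes. In Lamin B2 Kd 0 were called, against 4.33%, and 8 had an unadjusted p under 0.05, against 24.4% of all genes. Their medians were -0.17 and -0.18, against -0.04 and -0.14 for all genes. GNL3, encoding nucleostemin, a nucleolar GTPase of proliferating cells, fell from 8.11, 8.14 and 8.24 in Control to 7.33, 7.43 and 7.59 in Lamin A/C Kd (-0.72 ± 0.11, adjusted p = 0.00710). Its signal was 8.08 to 8.14 in Lamin B2 Kd.

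The other 4 that fell in Lamin A/C Kd were GNL2, a related GTPase (-0.68 ± 0.11), EBNA1BP2, a factor of large subunit assembly (-0.63 ± 0.17), TAF1A, a subunit of the RNA polymerase I factor SL1 (-0.60 ± 0.12), and SBDS, which helps release eIF6 from the large subunit (-0.40 ± 0.10). PNO1, a small subunit assembly factor, rose by 0.78 ± 0.18. Their adjusted p-values ran up to 0.0480, that of EBNA1BP2. Whether the calls of these and other listed genes outside the naming rule hold under the alternatives was not tested. Of 14 translation factors and other TOP mRNAs 0 were called in either knockdown, with 1 and 2 at an unadjusted p under 0.05. Of all genes 8.83% and 4.33% were called, and 23.1% and 24.4% had an unadjusted p under 0.05.

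Of 12 regulators of mTOR and of TOP mRNAs, 1 was called in Lamin A/C Kd, 8.33% of the list against 8.83% of all genes. This was EIF4EBP2, an mTOR-controlled repressor of cap-dependent translation, which fell by 0.62 ± 0.13 on the log2 scale (adjusted p = 0.0190, limma). After loss of Lamin B2 0 were called, against 4.33% of all genes. There 3 had an unadjusted p under 0.05, against 24.4% of all genes. Of 76 mitochondrial ribosomal protein genes 3 fell in Lamin A/C Kd (MRPS33, MRPL3 and MRPL46) and 1 in Lamin B2 Kd (MRPL45), and 0 rose in either, which is 3.95% and 1.32% of the list against 8.83% and 4.33% of all genes. An unadjusted p under 0.05 was found for 15 and 24 of the 76, against 23.1% and 24.4% of all genes. Their median log2 fold changes were -0.09 and -0.25, where all genes had -0.04 and -0.14. In Lamin B2 Kd the highest value of these 76 genes was -0.02. In bulk RNA from a culture, fewer cells of a kind and less RNA per cell cannot be told apart, and because each array was scaled to its own median, a change in the ribosomal protein mRNA of a cell that kept pace with all its mRNA would not be seen.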

How the data were processed

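RNA of 9 DLD1 cultures was measured on single-color Agilent arrays. For every array the authors deposited the scanner software's spot list, in which the processed signal is a background-subtracted intensity, with flags for detection, saturation and outlying spots. The submitters' processing notes give version 10.5 and the file headers 10.7.3.1. A second file from the authors holds normalized log2 values with a 50th percentile shift. Of its 50238 rows 20266 are blank and 11504 join several probes, and it served as an alternative. Its Lamin B2 Kd set numbers do not match those of the titles, and only the group was used.

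The log2 intensity minus the array median was averaged per probe, leaving out outlier spots. Well above background means at least 0.5 of a probe's spots. On each array 65.6 to 74.1% of spots were well above background, and the 3 arrays per group limit the precision. Groups were compared with limma 3.58.1 (R 4.3.3) over all 9 arrays, with Benjamini-Hochberg adjustment over all tested probes and calls at an adjusted p under 0.05. The counts for all genes use the brightest tested probe of a gene. The array test of the study is not given in the sources used here.

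The members, gene lists and comparisons were chosen with earlier results of these data known. Named genes were the 5 highest and 5 lowest in each knockdown, called members and members or relatives listed for their known roles, and single probes were chosen after their values were seen. Same-numbered arrays of different groups deviated with correlations of -0.05 to 0.08, so the numbers were not used as pairs. Alternatives were other scalings, background correction, the deposited table, filters, blocks, weights, left-out arrays and other choices of probe. The scanner files' probe sequences and RefSeq start regions (GRCh38.p14) were read as given. All 77 names were found in the RefSeq gene list and 60 among the start regions. The steps were run on simulated data with independent noise, the same spread in all groups and no shift of whole arrays. That setting differs from the Lamin B2 Kd arrays, so it does not show how the steps perform on them. One gene outside the naming rule is not reported here.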

Additional observations from a re-analysis of the deposited data

Results flagged for a closer look

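The effects of the knockdowns, which share their controls, differed on 10 ribosomal protein probes when Lamin A/C Kd was tested directly against Lamin B2 Kd by limma (adjusted p under 0.05 over all probes). These are 10 of 203 tested member probes, all higher in Lamin A/C Kd, where 10.5% of all 33134 probes were higher and 4.91% lower. The log2 difference was 2.37 for RPS29 probe HS_44k_1155, 1.33 and 1.20 for RPL31 probes HS_44k_1568 and HS_44k_1567, and 1.02 for RPL28 probe P916251. For RPS10 it was 0.95 on P86728, 0.81 on P14894, P318646 and P164630, and 0.76 on P418619. For RPS14 probe P37939 it was 0.49. On each of the 10 all Lamin A/C Kd arrays lay above all Lamin B2 Kd arrays. The 10 were picked by the test on these same arrays, so this adds no support. The RPS10 probes among them share target sequence and are not independent measurements.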

How the results depend on the processing

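The count of called genes, 0 in each comparison, rose to at most 3 under the alternatives. In Lamin A/C Kd against Control it was 3 with cyclic loess (RPL10L, RPL22, RPS9). It was 1 with quantile normalization (RPL10L), the 75th percentile shift, normexp, array weights, only the 2 groups compared, the slide as a block, the mean over probes, the middle probe or an unadjusted p, and 0 to 1 when arrays were left out. Of all genes, 13.2% were called with cyclic loess, 14.1% with quantile normalization, 15.1% with the 75th percentile shift and 15.9% with normexp. The shares were 24.2% with array weights, 19.98% with only the 2 groups and 20.8% with the slide block. They were 8.57% with the mean over probes and 8.9% with the middle probe. With arrays left out they ran from 2.68% to 20.8%, and 23.1% of all genes had an unadjusted p under 0.05. In Lamin B2 Kd against Control it was 3 with an unadjusted p, 2 with normexp (RPL22, RPS10), and 1 with array weights, the mean over probes, the middle probe or the deposited table. Of all genes, 24.4% had an unadjusted p under 0.05, and 10.2% were called with normexp and 7.71% with array weights. The shares were 4.199% with the mean over probes, 4.28% with the middle probe and 5.39% with the deposited table. Between the knockdowns it was 3 with the mean over probes (RPL31, RPS10, RPS29) or an unadjusted p, 1 with the 75th percentile shift, quantile normalization, cyclic loess, normexp, the middle probe or the deposited table, and 0 to 1 when arrays were left out. Of all genes, 15.4% were called with the mean over probes and 22.2% with the 75th percentile shift, with the other named scalings and probe choices between these. Wherever members were called, they were a smaller share of the tested members than the called genes were of all genes. The 2-fold rule of the study called 0 genes in each.

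The member median in Lamin A/C Kd moved by more than the spread between replicates to 0.0862 with the 75th percentile, 0.110 with cyclic loess, -0.0826 with normexp, -0.0245 with the mean over probes and -0.0190 with the middle probe. In Lamin B2 Kd it moved to 0.0755 with the 75th percentile. The cause was not tested. The scaling also moved the share of higher among all called genes, in Lamin B2 Kd from 10.3% to 37.4% with the 75th percentile. With the replicate number as a block, 0 member genes were called in each comparison, member probes called in Lamin B2 Kd went from 7 to 0 lower, and all genes called went from 957 to 22 higher and 125 lower. With it the 5 RPS10 probes had adjusted p from 0.0670 to 0.0938. When an array is left out, its group is assumed to vary like the others. Across 20 alternatives, member probes called higher and lower numbered 0 to 7 and 0 to 10 in Lamin A/C Kd, 0 and 0 to 12 in Lamin B2 Kd, and 1 to 15 and 0 to 3 between the knockdowns. Over the same alternatives the share of all genes called ran from 2.68% to 24.2% in Lamin A/C Kd and from 0.0452% to 10.2% in Lamin B2 Kd. Between the knockdowns it ran from 6.86% to 22.2%. The share of all probes called was not counted for each alternative. The named genes and probes changed direction past the threshold in none of the alternatives. The deposited table held values for testing 69 members. The median half-width of a member's 95% interval in Lamin A/C Kd, 0.31, takes its spread from all 3 groups, of which Lamin B2 Kd varied most.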
